A study of Homo sapiens with 6 samples.

Results

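The genes studied here encode the protein subunits of the mitochondrial ribosome, the machine that translates the few mRNAs of the mitochondrial genome. They were taken by symbol, as protein-coding genes named MRPL or MRPS followed by a number, with 1 probe set per gene, the one with the highest mean. This gave 73 genes among the 14884 genes tested, 48 of the large subunit (MRPL) and 25 of the small subunit (MRPS), out of 77 such symbols in the RefSeq gene table used. MRPL12, MRPS6, MRPS18C and MRPS24 were not analysed here, and 3 pseudogenes and 2 antisense transcripts that match the pattern were left out.

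Expression was measured in MM.1S, an established human multiple myeloma cell line, on 6 arrays of 1 colour. On 3 arrays the cells had been pulsed with Cfz (carfilzomib, a proteasome inhibitor) for 1 h and then kept with 10 µM ATRA (all-trans retinoic acid) for 12 h, and on the other 3 the same pulse was followed by 12 h with the solvent DMSO. Every array thus comes from Cfz-treated cells of 1 line, and no array without Cfz was used here. The labels do not say whether replicate arrays stem from different cultures, so the spread behind each p-value may be technical.

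Mitochondrial ribosomes sit at the inner membrane and make core subunits of the respiratory chain and of the ATP synthase. Nuclear genes encode all their proteins, which are imported and assembled on 2 rRNAs of mitochondrial origin. Some of these proteins have counterparts in bacterial ribosomes and others are specific to mitochondria, and inherited loss of several of them causes failure of oxidative phosphorylation.

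No mitochondrial ribosomal protein gene changed past the threshold after ATRA. Of the 73 genes, 0 passed an adjusted p of 0.05 in either direction (limma, Benjamini-Hochberg over all genes), where 3.80% of all genes did, 1.73% higher and 2.07% lower. At an unadjusted p under 0.05 there were 9 (12.3%), 8 of them lower with ATRA and 1 higher, against 17.9% of all genes. In the brighter 50% of genes the share was 27.6%, against 12.7% for the 71 members in it. The smallest adjusted p of any member was 0.149, that of MRPL17. The 95% intervals, taken gene by gene, lay within a 2-fold difference in either direction for all 73 genes and within 1.5-fold for 70 of them, and their median width to each side was 0.24 on the log2 scale. The lowest bound was -0.70 (MRPS28) and the highest 0.51 (MRPL50).

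The differences were small and more often downward. By mean, 54 members (74.0%) were lower with ATRA and 19 higher, against 52.9% of all genes lower. The median log2 difference, ATRA minus DMSO, was -0.105 for the members and -0.015 for all genes. In 21 members (28.8%) all 3 ATRA arrays lay below all 3 DMSO arrays, against 14.8% of all genes, and in 4 members (5.48%) all 3 lay above, against 9.86%. Members are bright on this array, with 71 of 73 among the brighter 50% of genes, and bright genes as a whole leaned down. In that brighter 50%, 24.5% of genes had all ATRA arrays below all DMSO arrays and the median was -0.051, against 29.6% and -0.113 for the 71 members in it. In the brightest 25% the 54 members had a median of -0.075 and 29.6% without overlap downward, and all genes there had -0.062 and 32.6%. The members' downward share there was below that of genes of like brightness, and the upward share was 7.41% against 15.9% (5.63% against 13.2% in the brighter 50%).

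**Figure D1:**
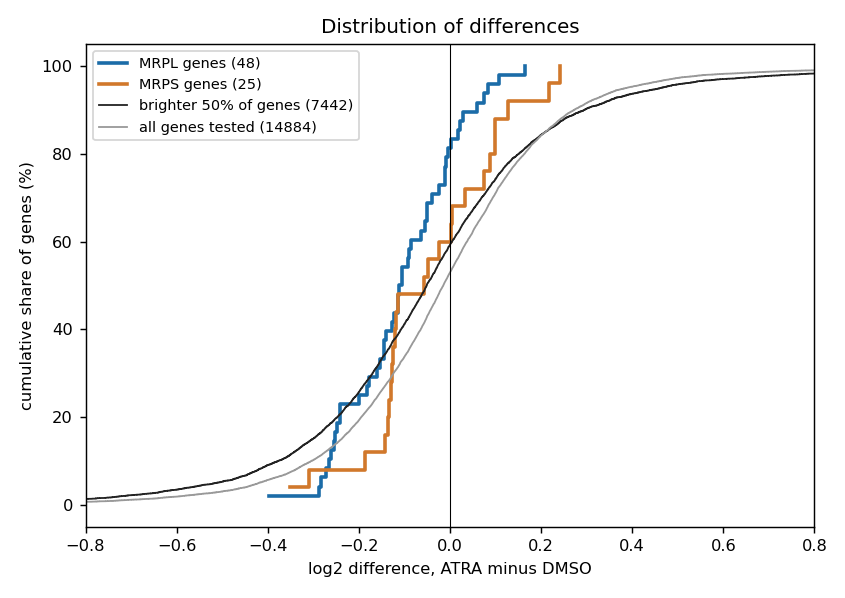
Cumulative share of genes (%) against the log2 difference, ATRA minus DMSO, for the 48 MRPL genes, the 25 MRPS genes, the brighter 50% of genes and all 14884 genes. Both subunit curves are steeper than those of the larger sets, and the large-subunit curve crosses 0 at 81.2%.

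Array by array, the large-subunit genes stood lower on every ATRA array. The median deviation of the 48 MRPL genes from each gene's DMSO mean was -0.085, -0.085 and -0.122 (log2) on the ATRA arrays, and -0.022, 0.041 and -0.018 on the DMSO arrays. For the 25 MRPS genes it was -0.041, 0.008 and -0.077 with ATRA, and -0.010, 0.016 and -0.004 with DMSO. ATRA replicate 2 thus lay among the DMSO arrays for the small subunit, and the groups did not overlap for the large one. DMSO replicate 2 had the highest value of the 6 arrays for both subunits. All genes together stood at -0.020, -0.018 and -0.026 on the ATRA arrays and between -0.002 and 0.001 on the DMSO arrays. The brighter 50% of genes, to which nearly all members belong, stood at -0.052, -0.036 and -0.065 on the ATRA arrays and at -0.007, 0.008 and 0.003 on the DMSO arrays. The MRPL genes lay below them on every ATRA array, and the MRPS genes lay above them on ATRA replicates 1 and 2.

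Large and small subunit differed little in the size of the change, and a larger share of the large-subunit genes was lower by mean. Of the 48 MRPL genes 39 (81.2%) were lower by mean, with a median of -0.109, and of the 25 MRPS genes 15 (60.0%) were, with a median of -0.056. The MRPS median was -0.087 without ATRA replicate 1 and -0.037 without ATRA replicate 3. The middle 50% of the genes lay between -0.186 and -0.011 for MRPL and between -0.129 and 0.074 for MRPS. No overlap, downward, was seen for 15 MRPL genes (31.2%) and 6 MRPS genes (24.0%), and upward for 1 (2.08%) and 3 (12.0%). Over all genes the shares were 14.8% downward and 9.86% upward, and in the brighter 50% they were 24.5% and 13.2%. The medians were 0.053 apart (MRPL minus MRPS, -0.053), more than the SD of this gap between arrays of 1 group (0.025), and the gap was -0.023 without DMSO replicate 1. Genes are not replicates, so this difference has no test. MRPS18A and MRPS30 bear small-subunit names but lie in the large subunit in the structure of the human mitochondrial ribosome. Both were lower by mean (-0.13 and -0.12), and counting them with the large subunit gave medians of -0.113 and -0.048.

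**Figure D2:**
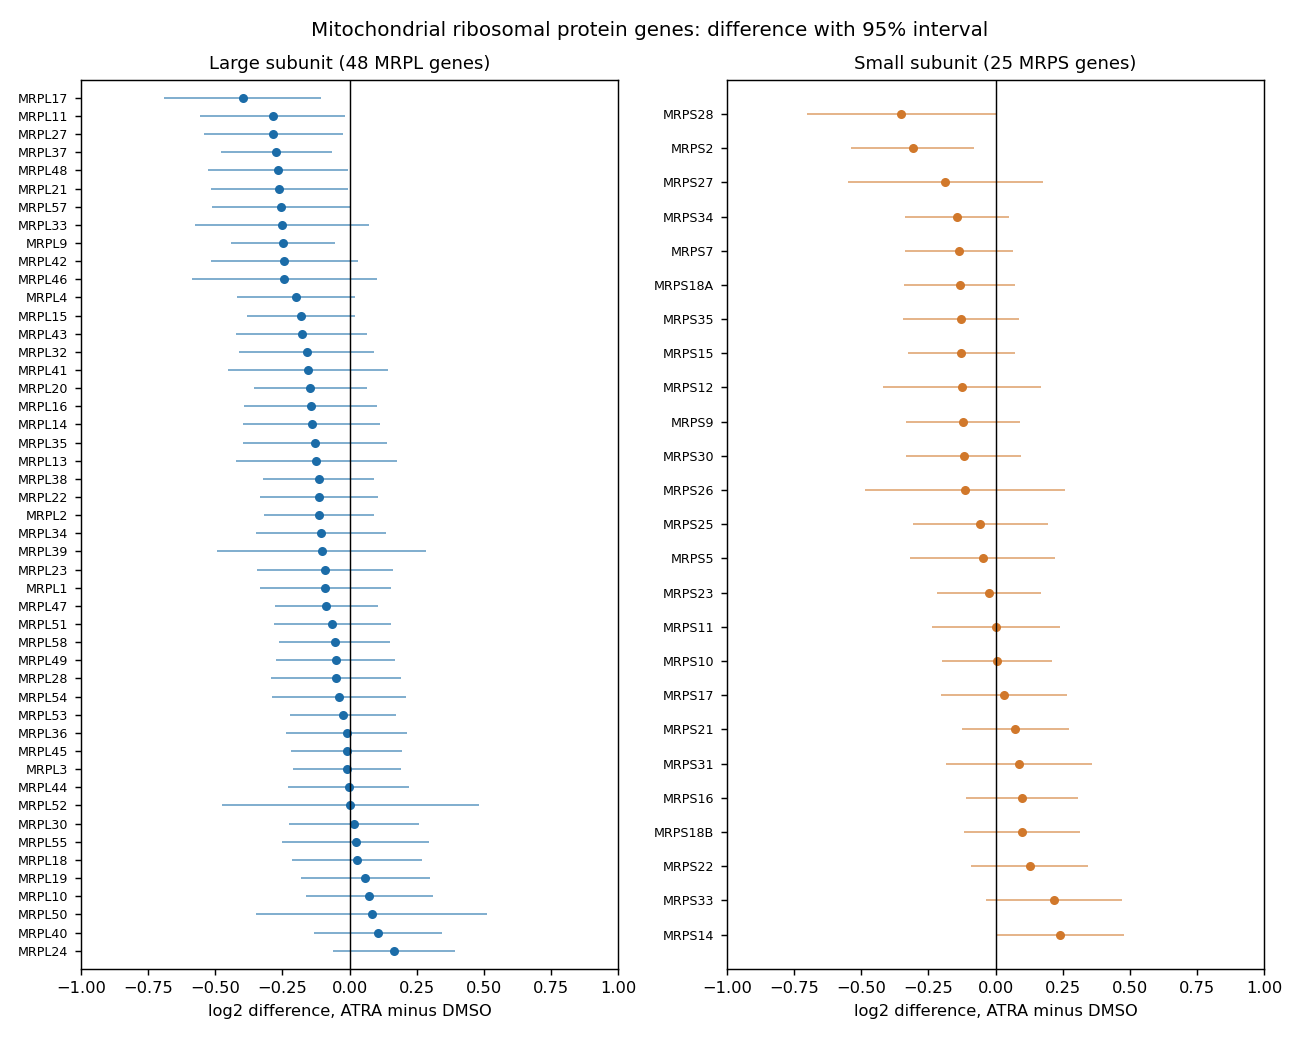
Log2 difference, ATRA minus DMSO, of each gene (dot) with its 95% interval (line), MRPL genes on the left and MRPS genes on the right, each sorted from the lowest difference at the top. All intervals stay between -1 and 1, and most of them include 0.

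The split by evolutionary origin showed no clear pattern. Large-subunit proteins with a bacterial counterpart had a median of -0.118 (28 genes, 23 lower) and those specific to mitochondria -0.060 (20 genes, 16 lower). In the small subunit the order was the other way, with -0.048 (15 genes, 8 lower) for proteins with a bacterial counterpart and -0.085 (10 genes, 7 lower) for the specific ones. By place in the ribosome, 7 of 8 genes for proteins around the exit tunnel of the large subunit were lower by mean (median -0.089) and 4 of 6 for the central protuberance (median -0.178), while for the head of the small subunit 3 of 7 were lower (median 0.004). These sets are small and 0 of their genes passed the test.

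Around the exit tunnel, where the new chain leaves, MRPL17 had the largest difference of all members. Its intensity was 61.6, 57.2 and 50.6 on the ATRA arrays and 83.4, 74.2 and 65.9 on the DMSO arrays. The groups did not overlap, but the DMSO arrays were spread almost as widely as the groups were apart. The log2 difference was -0.40 (SE 0.12, 95% interval -0.69 to -0.105, adjusted p = 0.149). MRPL24, also at the tunnel, had the largest difference upward in the large subunit, at 230, 252 and 220 with ATRA and 211, 217 and 197 with DMSO (log2 difference 0.16, adjusted p = 0.439). MRPL45, which holds the ribosome at the inner membrane, was at 646 ± 31.6 with ATRA and 650 ± 16.8 with DMSO (SD, n = 3 each; difference -0.01). MRPL44, a protein of the ribonuclease III fold, was at 239, 236 and 234 with ATRA, inside the DMSO range of 218 to 258. Its other named probe set was at 4 to 5 on all arrays, near the lowest values of the table, and gives no second reading.

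The 100 bases before the start of MRPL17 are shown because they hold the letters known for NRF1, a transcription factor of nuclear genes for mitochondrial proteins, at 2 places. They lie at chr11:6683341-6683440 on the minus strand (GRCh38.p14, sequence from RefSeq), and capitals mark GCGCATGCG on either strand, which overlaps its own reverse complement in the first run. These letters stood in 2 of 65 member promoters (3.08%), against 2.76% of protein-coding promoters. Whether they bear on the difference of MRPL17 was not tested.
MRPL17: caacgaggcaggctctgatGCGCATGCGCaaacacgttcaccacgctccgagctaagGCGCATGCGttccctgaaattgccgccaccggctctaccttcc

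At the stalk base, where translation factors dock, MRPL11 was at 158, 171 and 186 with ATRA and 201, 193 and 235 with DMSO. All ATRA arrays lay below all DMSO arrays, with a log2 difference of -0.29 (SE 0.11, adjusted p = 0.247). MRPL10, its partner there, was at 114 ± 8.65 with ATRA and 109 ± 6.19 with DMSO (SD, n = 3 each; difference 0.07). In the central protuberance, MRPL27 was at 131 ± 5.56 with ATRA and 160 ± 18.9 with DMSO (difference -0.28, adjusted p = 0.236), without overlap, and the difference was -0.19 without DMSO replicate 2. MRPL48 was at 105, 105 and 95.5 with ATRA and 110, 137 and 122 with DMSO (difference -0.27, adjusted p = 0.269), again without overlap. MRPL40 of the same region was higher by mean (0.11, adjusted p = 0.653), so this region did not move as 1 block.

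MRPL37 and MRPL9 were called when the variance or dim genes were handled otherwise. MRPL37, a protein specific to mitochondria, had 966, 1023 and 1076 with ATRA and 1212, 1237 and 1251 with DMSO. MRPL9, with a bacterial counterpart, had 715, 687 and 691 with ATRA and 846, 820 and 819 with DMSO. Both genes were without overlap. The spread within each group was small beside the gap for MRPL9. For MRPL37 the ATRA arrays were spread more widely (SD 54.6) than the DMSO arrays (SD 19.9). The differences were -0.27 (SE 0.088, adjusted p = 0.160), a level 17.2% lower with ATRA for MRPL37, and -0.25 (SE 0.083, adjusted p = 0.174), 15.8% lower, for MRPL9. They were called in 4 of the 18 alternatives each, and in these more genes of every kind were called: 8.92% of all genes with eBayes with trend and robust (3.32% higher, 5.60% lower), 8.18% on the scale of log2(value + 16) (3.04% higher, 5.15% lower) and 15.4% without the dimmer 50% of genes (5.86% higher, 9.50% lower). The members called were these 2, both lower, in each of the 3. Without the dimmer 75% of genes, an alternative chosen after seeing the data, 6 of 54 members were called (5 lower, 1 higher), against 33.5% of all genes in that fit (22.3% lower, 11.1% higher).

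Among the other large-subunit genes without overlap, MRPL21 was at 46.8, 48.0 and 45.9 with ATRA and 55.3, 63.6 and 50.5 with DMSO (-0.26, adjusted p = 0.269). MRPL4 was at 209, 220 and 225 with ATRA and 245, 269 and 237 with DMSO (-0.20, adjusted p = 0.331). MRPL15 was at 345, 365 and 361 with ATRA and 396, 396 and 422 with DMSO (-0.18, adjusted p = 0.336). These 3 proteins have bacterial counterparts, and none of the 3 had overlapping groups. MRPL47, at the exit tunnel, had the narrowest interval of all members and was at 389, 386 and 396 with ATRA and 416, 417 and 409 with DMSO (-0.09, adjusted p = 0.656). MRPL58, a peptidyl-tRNA hydrolase that became part of the ribosome, overlapped between groups at 411 ± 21.0 with ATRA and 427 ± 10.6 with DMSO (SD, n = 3 each).

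**Figure D3:**
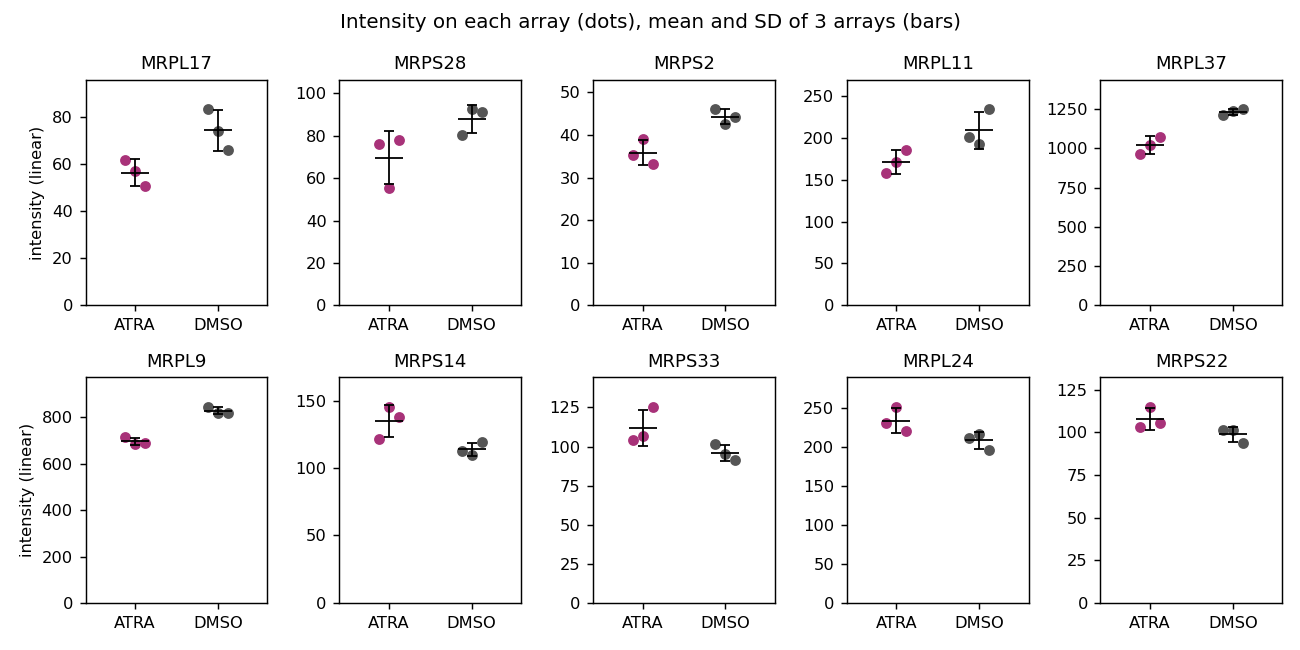
Intensity on a linear axis from 0 of 10 members on each array (dots), ATRA left of DMSO, with the mean and SD of 3 arrays (bars). MRPL17, MRPS28, MRPS2, MRPL11, MRPL37 and MRPL9 lie lower with ATRA without overlap, and MRPS14, MRPS33, MRPL24 and MRPS22 higher without overlap.

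In the small subunit, the largest differences were those of MRPS28 and MRPS2. MRPS28, the relative of bacterial protein S1, was at 75.9, 55.4 and 78.0 with ATRA and 80.6, 92.6 and 91.1 with DMSO. Its ATRA replicate 2 stood far below the other ATRA arrays. The difference was -0.35 (SE 0.15, adjusted p = 0.280), and -0.19 without that array. MRPS2, whose loss in people impairs assembly of the small subunit, was at 35.2, 39.0 and 33.2 with ATRA and 46.1, 42.6 and 44.2 with DMSO (difference -0.31, SE 0.098, adjusted p = 0.154), without overlap. Its other probe set overlapped between groups and gave -0.02, so the size for MRPS2 is uncertain.

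Higher by mean without overlap were 3 MRPS genes (12.0%) and 1 MRPL gene (2.08%). The share was 9.86% over all genes and 13.2% in the brighter 50%, so that of the MRPS genes was near both. MRPS14, a protein of the head of the small subunit, was at 122, 145 and 138 with ATRA and 113, 110 and 119 with DMSO. It had the only unadjusted p under 0.05 in this direction, with a difference of 0.24 (SE 0.10, adjusted p = 0.274). MRPS33, also of the head and specific to mitochondria, was at 104, 107 and 125 with ATRA and 102, 95.5 and 91.3 with DMSO (0.22, adjusted p = 0.359). MRPS22, specific to mitochondria and a cause of inherited respiratory chain deficiency, was at 103, 115 and 106 with ATRA and 101, 102 and 93.5 with DMSO (0.13, adjusted p = 0.543). For MRPS14, MRPS33 and MRPS22 the nearest arrays of the groups almost touched. The difference was 0.18 for MRPS14 and 0.08 for MRPS22 without ATRA replicate 2, and 0.13 for MRPS33 without ATRA replicate 3. In the same head, MRPS7 was at 470 ± 18.7 with ATRA and 516 ± 10.4 with DMSO (SD, n = 3 each; -0.14, adjusted p = 0.476), without overlap in the other direction.

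Of the 3 brightest members, MRPL37 is described above (-0.27, without overlap), and the others are MRPS21 and MRPS15. MRPS21 was at 1877 ± 59.6 with ATRA and 1783 ± 46.1 with DMSO (SD, n = 3 each), and differed by 0.07 with an interval from -0.13 to 0.27. MRPS15 was at 1148 ± 32.7 with ATRA and 1254 ± 42.7 with DMSO, and differed by -0.13 with an interval from -0.33 to 0.07. All its ATRA arrays lay below all its DMSO arrays. MRPS18B has 7 probe sets with identical values, so they are 1 measurement, 203 ± 10.7 with ATRA and 189 ± 9.36 with DMSO. The probe sets of MRPS16 gave 0.10 and -0.03. At the dim end MRPL52 was at 12.4, 9.62 and 13.2 with ATRA and 11.1, 15.3 and 9.24 with DMSO, MRPL23 averaged 16.8 with ATRA and 17.9 with DMSO and MRPL39 24.4 with ATRA and 26.2 with DMSO. These 3 overlapped between groups and lay at mean log2 levels of 3.54 to 4.65, in the range of markers of cell types that should be absent.

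As a check of the cells, 8 of 11 plasma cell and myeloma markers were measured, at mean log2 levels between 9.26 and 10.95. Of 36 markers of other cell types 21 were measured, with a median of 3.40, and all but KRT18 (7.15) lay at or below 5.16, a level under which 6 members fell. Log2 values over genes correlated at 0.990 to 0.992 within groups and 0.985 to 0.987 between them. No array stood apart, and the number of arrays limits the precision.

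Genes that serve the same ribosome were mixed. Of 25 listed assembly factors 22 were measured, of which 1 rose (3.80% of all genes were called), 0 fell and 21 did not pass. At an unadjusted p under 0.05 there were 8 (36.4%, 4 higher and 4 lower), against 17.9% of all genes. In the brighter 50% of genes, to which 21 of the 22 belong, the share was 27.6% and the median -0.051. By mean 15 of the assembly factors were lower (median -0.132, but -0.077 with quantile normalization and -0.062 with cyclic loess). The 1 called was MRM1, which methylates the large mitochondrial rRNA, at 113, 140 and 139 with ATRA and 66.6, 81.3 and 74.3 with DMSO. The log2 difference was 0.82 (SE 0.13, adjusted p = 0.0170), 1.76-fold, and every ATRA array lay above every DMSO array. The call was lost without ATRA replicate 2 (adjusted p = 0.0620), ATRA replicate 3 (0.0648), DMSO replicate 1 (0.0702) or DMSO replicate 3 (0.0691). The difference stayed between 0.74 and 0.92 in the fits without 1 array, in which 207 to 317 genes were called in all, against 565 with all arrays. MRM2, which methylates the same rRNA, differed the other way, at 178, 163 and 145 with ATRA and 199, 206 and 206 with DMSO (-0.34, adjusted p = 0.139). RPUSD4, a pseudouridine synthase of that rRNA, was at 64.5 ± 5.98 with ATRA and 82.9 ± 2.80 with DMSO (SD, n = 3 each; -0.37, adjusted p = 0.112).

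No measured mitochondrial translation factor passed the test, and most were higher by mean. Of 16 listed, 12 were measured and 0 passed (limma), against 3.80% of all genes. TUFM, TSFM, GFM1 and GFM2 were not analysed here. At an unadjusted p under 0.05 there were 3 of 12, all higher, against 17.9% of all genes. The share was 27.6% in the brighter 50% of genes, to which all 12 factors belong. By mean 10 were higher, with a median of 0.056, which was 0.097 with quantile normalization, 0.118 with cyclic loess, and 0.085, 0.090 and 0.088 without ATRA replicate 1, ATRA replicate 3 and DMSO replicate 2. MTRES1, which rescues stalled mitochondrial ribosomes, was at 68.3, 66.2 and 79.5 with ATRA and 52.5, 51.9 and 51.3 with DMSO (0.45, SE 0.10, adjusted p = 0.0605). It was called in 7 alternatives, among them quantile normalization and cyclic loess. MTIF2, the initiation factor that brings in the first tRNA, was at 158 ± 10.3 with ATRA and 129 ± 14.5 with DMSO (0.30, adjusted p = 0.230). Of the ribosomal proteins without an MRP symbol, limma covered 3 of 5, and 0 passed or had an unadjusted p under 0.05. PTCD3 differed by 0.08 (0.03 without ATRA replicate 3, 0.05 without DMSO replicate 2 and 0.16 without ATRA replicate 1) and DAP3 by -0.01. Of the 9 listed genes of mitochondrial transcription and DNA upkeep 3 were measured and 0 passed or had an unadjusted p under 0.05, with POLRMT, the mitochondrial RNA polymerase, at -0.20 (adjusted p = 0.383). The mitochondrial tRNA synthetases were not analysed here.

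Of 53 cytosolic ribosomal proteins measured, 27 were lower and 26 higher by mean. This list was taken by symbol from the measured genes, so absent ones are not counted, and it includes symbols such as RPL10L and RPL3L. Their median was -0.0004 as deposited, 0.034 with quantile normalization and 0.062 with cyclic loess, and 0.036 without ATRA replicate 1. In limma's test 0 passed, against 3.80% of all genes. An unadjusted p under 0.05 was seen for 4 (7.55%), against 17.9% of all genes. The share was 27.6% in the brighter 50% of genes, to which 49 of the 53 belong. The largest difference was that of RPL39L (-0.42, adjusted p = 0.134), a copy of RPL39. Whether the medians of mitochondrial and cytosolic ribosomal proteins differ was not tested.

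**Figure D4:**
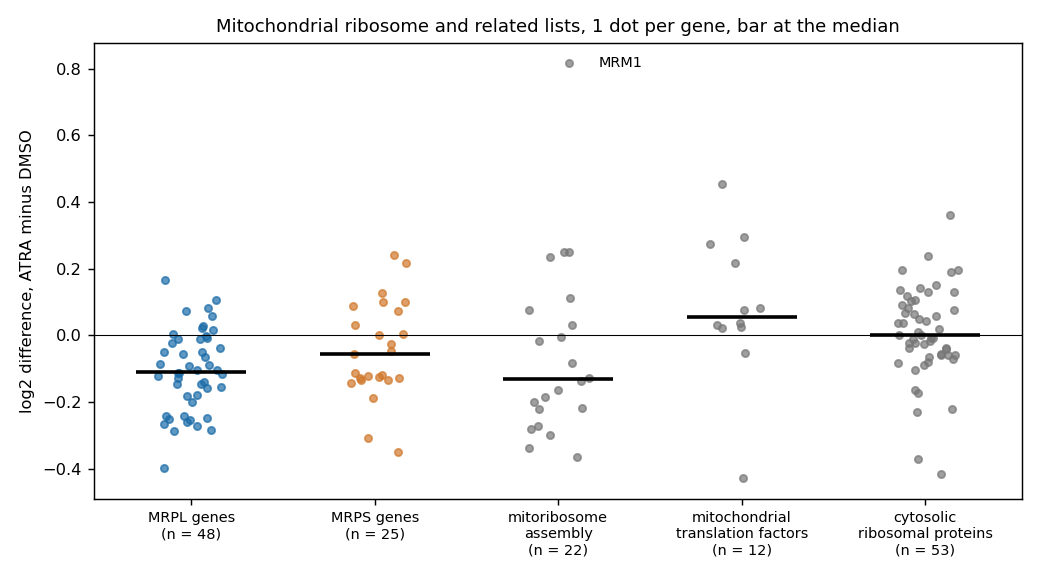
Log2 difference, ATRA minus DMSO, of each gene (dot) in 5 lists, with a bar at the median. MRM1 is the 1 gene that passed the test. The bars lie at -0.109 for MRPL, -0.056 for MRPS, -0.132 for assembly factors, 0.056 for translation factors and near 0 for cytosolic ribosomal proteins under the scaling reported.

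Promoters of these genes share letters that the choice of members did not use. Of the 73 members, 65 had a promoter of 250 bases before and 50 after the start in the RefSeq table (GRCh38.p14). CCGGAAG, the core read by ETS-family factors, stood on either strand in 28 of them (43.1%), against 14.2% of 15842 protein-coding promoters. AAGATGGCG, the core read by YY1, stood in 12 (18.5%) against 2.74%, and GCGCATGCG, that of NRF1, in 2 (3.08%) against 2.76%. The ETS and YY1 letters can share the bases AAG, and 4 members held both. Both subunits had the ETS letters at a like share, 17 of 41 MRPL (41.5%) and 11 of 24 MRPS promoters (45.8%). Members with the ETS letters had a median difference of -0.053 and those without -0.113, and members with the YY1 letters -0.114 and those without -0.086. Over the 9707 promoters of tested genes the order for ETS was the other way, with medians of -0.045 with the letters and -0.023 without. For YY1 these medians were -0.061 and -0.024, the same order as in the members. These medians are descriptions without a test, and a match of letters is not a binding site.

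The upstream bases of 4 members are printed to show both cases. MRPS22, higher by mean, holds the ETS letters on both strands side by side, and MRPL48, lower by mean, holds them once. MRPL37 and MRPL9, called in 4 alternatives each, hold none of the 3 cores in these 100 bases. The stretches end at the base before the start and lie at chr3:139343894-139343993 (plus strand) for MRPS22, chr11:73787774-73787873 (plus strand) for MRPL48, chr1:54200067-54200166 (plus strand) for MRPL37 and chr1:151763497-151763596 (minus strand) for MRPL9, on GRCh38.p14 from RefSeq, with CCGGAAG on either strand in capitals.
MRPS22: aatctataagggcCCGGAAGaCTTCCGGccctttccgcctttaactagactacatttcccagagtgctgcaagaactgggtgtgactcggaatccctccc
MRPL48: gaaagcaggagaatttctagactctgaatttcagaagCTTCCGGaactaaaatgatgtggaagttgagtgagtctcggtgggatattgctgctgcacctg
MRPL37: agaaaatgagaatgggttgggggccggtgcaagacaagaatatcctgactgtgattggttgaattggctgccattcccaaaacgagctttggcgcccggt
MRPL9: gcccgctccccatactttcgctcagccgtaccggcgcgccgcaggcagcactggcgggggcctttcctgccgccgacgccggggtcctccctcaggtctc

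Some members start head to head with another gene. In the RefSeq starts, 20 of the 65 members with an entry had a start on the opposite strand within 1000 bases upstream. The share over all genes was not computed, so whether this is particular to the members was not tested. Both genes of a pair were measured in 10 cases, counting MRPL46 and MRPS11, which face each other, from both sides. Of the 8 measured neighbours that are no members 1 was called (3.80% of all genes were), SKA3, a kinetochore protein needed in mitosis, which faces MRPL57. SKA3 fell to 154, 165 and 149 with ATRA, against 257, 271 and 278 with DMSO (log2 difference -0.79, SE 0.091, adjusted p = 0.00579), and it was called in all 18 alternatives. MRPL57, whose start is 106 bases away, was at 87.3, 100 and 80.0 with ATRA and 102, 109 and 107 with DMSO (-0.26, SE 0.11, adjusted p = 0.280), without overlap. Whether the 2 differences themselves differ was not tested. The facing members MRPL46 and MRPS11, named after their values were seen, were at 195 ± 15.1 and 351 ± 31.6 with ATRA, against 233 ± 44.9 and 350 ± 13.8 with DMSO (SD, n = 3 each), and for MRPL46 DMSO replicate 2 (284) stood far above the other DMSO arrays (208 and 205). The difference for MRPL46 was -0.24, and -0.09 without that array. The 100 bases nearest to MRPL57 among those between the starts of MRPL57 and SKA3 lie at chr13:21176558-21176657 (plus strand, GRCh38.p14, from RefSeq) and hold none of the 3 cores.
MRPL57: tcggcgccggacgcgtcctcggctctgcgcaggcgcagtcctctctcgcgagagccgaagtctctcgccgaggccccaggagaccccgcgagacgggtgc

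The lean downward depended on how the arrays were put on 1 scale. With quantile normalization the median was -0.074 for MRPL and -0.013 for MRPS genes, and with cyclic loess -0.053 and 0.010, so that the direction for the small subunit turned. The number of members lower by mean was 48 and 43 of 73 under these settings. With the arrays at a common median the lean was slightly larger instead, at -0.122 for MRPL and -0.069 for MRPS, and 57 of 73 were lower. The large-subunit median stayed below that of all genes in each of the 18 alternatives. Some of these, such as the replicate block and eBayes with trend and robust, cannot change a log2 difference. Among brighter genes it was -0.113 against -0.051 (without the dimmer 50%) and -0.105 against -0.062 (without the dimmer 75%).

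**Figure D5:**
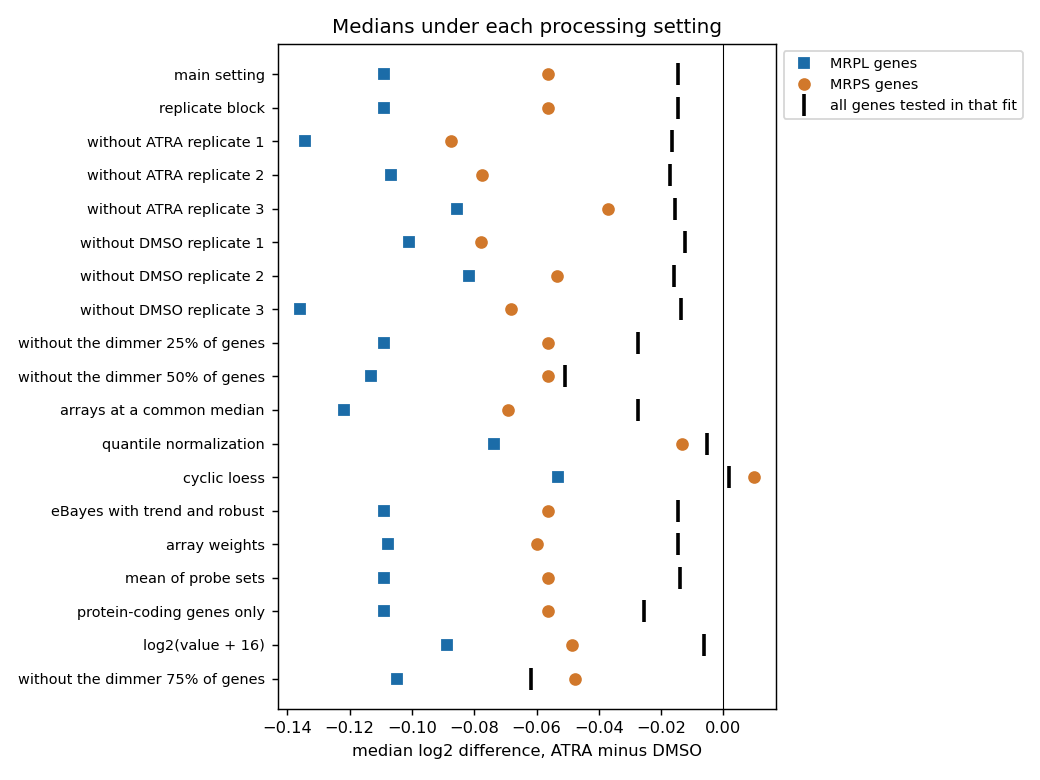
Median log2 difference, ATRA minus DMSO, of MRPL genes (squares), MRPS genes (circles) and all genes tested (ticks) under the setting reported and 18 alternatives. MRPL genes lie below all genes throughout, and MRPS genes lie above them with cyclic loess and without the dimmer 75% of genes.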

How the data were processed

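The authors deposited intensities between 2.53 and 14038 for 53617 probe sets on each of the 6 arrays. No source used here states their scale; they were read as linear from this range, and every log2 difference rests on that reading. RMA and limma are named in the submitters' processing notes, with no role or version, and no genome build is named there. Values were turned to log2 with no pseudocount, and no pair of arrays was identical. The platform annotation gives 1 symbol to 16098 probe sets, several to 0 and none to 37519, and all 16098 matched the RefSeq table by Entrez ID. Genes with several probe sets took the one with the highest mean.

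ATRA minus DMSO was fitted by limma's lmFit and eBayes (limma 3.58.1, R 4.3.3, no block, no filter, two-sided, Benjamini-Hochberg over 14884 genes), a procedure tested on simulated data. Members, lists and roles were chosen with earlier results of these data known. The text names the 4 largest differences in each direction, the 3 brightest and 3 dimmest members, members with several probe sets, MRPS18A and MRPS30, and from each list up to 2 called genes or the largest difference. MRPL9, MRPL27, MRPL48, MRPL57 and other members were named after their values were seen. The rule's MRPL12 was not analysed here. Alternatives changed the scaling, the filter on dim genes, the variance model, the probe-set rule, the pseudocount and the arrays used.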

Additional observations from a re-analysis of the deposited data

How the results depend on the processing

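The count of 0 members called held in 14 of 18 alternatives, among them each fit without 1 array. It was 2, both lower, without the dimmer 50% of genes, with eBayes with trend and robust and with log2(value + 16), and 6 (5 lower, 1 higher) without the dimmer 75%, an alternative chosen after seeing the data. All genes called were 565 as reported, 1143, 1327, 1218 and 1245 in these 4, and 207 to 317 without 1 array. With the replicate number as a block 0 members and 200 genes were called. Same-numbered arrays deviated together only weakly (correlations 0.0170, 0.0087 and 0.0161), so the numbers were not taken as pairs, although each array correlated best with its own number. The median of all members was -0.0667 with quantile normalization, -0.0470 with cyclic loess, -0.0824 with log2(value + 16), -0.0750 without the dimmer 75%, and -0.1123 to -0.0799 without 1 array. For MRPL it was -0.0737 (quantile) and -0.0530 (loess), and for MRPS -0.0133 and 0.0097, with -0.1359 to -0.0816 (MRPL) and -0.0874 to -0.0372 (MRPS) without 1 array. The MRPL minus MRPS gap ranged from -0.0677 to -0.0233 without 1 array. Assembly factors called were 4 of 21 without the dimmer 50%, 4 of 22 with log2(value + 16), 4 of 12 without the dimmer 75% and 2 of 22 with trend and robust. Over all genes the shares called in these fits were 15.4%, 8.18%, 33.5% and 8.92%. Without 1 array 0 to 1 assembly factors were called. Of 12 translation factors 1 was called without the dimmer 25% or 50%, with quantile, loess and log2(value + 16). The count was also 1 with trend and robust and with protein-coding genes only (655 genes called in all). Without the dimmer 75% it was 2 of 6. Cytosolic ribosomal proteins called were 1 of 49 without the dimmer 50% and 1 of 53 with quantile, loess and log2(value + 16). They were 3 of 32 without the dimmer 75% and 3 of 53 under trend and robust. Genes near 0 changed sign. MRPL52 was at -0.0100 (common median), -0.0164 (quantile), -0.0117 (loess) and -0.0031 (log2(value + 16)), and at -0.1612 to 0.2006 without 1 array. MRPL44 was at 0.0685 (quantile), 0.0676 (loess) and 0.0162 (mean of probe sets), and at -0.0624 to 0.0591 without 1 array. MRPS11 was at -0.0114 (common median) and -0.0557 to 0.0735, and MRPL39 at -0.2449 to 0.0188, without 1 array. Where the values above moved, the cause was not tested. Another background correction was not run, since the deposited values are already summarised.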
